A study of Mus musculus with 28 samples.

Results

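A set of 10 genes that mark tumor macrophages and their states, Adgre1, Csf1r, Mrc1, Cd68, Cd163, Trem2, Spp1, Gpnmb, Apoe and Folr2, were followed across 28 mouse tumors. They were chosen by name, and all 10 were found among the 55341 gene rows and among the 18521 genes that passed the filter on low counts. The tumors were AB1-HA mesotheliomas, 1 cell line that carries the influenza hemagglutinin gene, grown under the skin of female BALB/c.AusBP mice aged 8 to 10 weeks. Mice were given PBS (4 tumors), immune checkpoint blockade (ICB, 5 tumors), 5-fluorouracil (5-FU, 5 tumors), cisplatin (4 tumors), 5-FU+ICB (5 tumors) or cisplatin+ICB (5 tumors). ICB was 1 dose of 100 µg anti-CTLA-4 (clone 9H10) with 3 doses of 100 µg anti-PD-L1 (clone MIH5), 5-FU was given at 75 mg/kg into a vein, and cisplatin at 6 mg/kg into the peritoneum. Whole tumors were taken 7 days after treatment began and their RNA was sequenced in bulk, so fewer macrophages and less RNA per macrophage cannot be told apart in any value below. Each tumor is named by its group and replicate number, and all tumors came from 1 tumor line, which limits the model to that line.

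Macrophages enter tumors as blood monocytes or descend from resident cells, and most depend on signals through the receptor encoded by Csf1r. Once in the tissue they take on different states: some carry scavenger receptors and folate receptor and resemble resident macrophages, some handle lipid and debris through TREM2, apolipoprotein E and lysosomal proteins, and some express osteopontin, the product of Spp1. These states are known from single-cell studies of tumors, but several of their genes are also made by other cells, Spp1 and Gpnmb by osteoclasts and tumor cells among them.

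The start regions of Spp1, Mrc1 and Trem2 are printed from RefSeq (GRCm38.p6). They run from 250 bases before to 50 bases after the start of transcription, 5′ to 3′ on the + strand. In the treated tumors described below these members respectively fell, rose and did not pass the test, which is why they are shown. That holds for their own levels, not for levels set against another gene. Capitals mark 2 kinds of short motif, searched on both strands, so that a match on the other strand appears as the reverse complement. The first is GAGGAAG, the core of the site bound by PU.1, a factor of the myeloid lineage. The second is the E-box, which factors of the MITF and TFE family bind, in the form CATGTG. A second E-box form, a palindrome, was searched together with the first and counted with it, and reads CACGTG. In the regions printed, no matches overlap. The Spp1 region lies at chr5:104434861-104435160, the Mrc1 region at chr2:14229164-14229463 and the Trem2 region at chr17:48346151-48346450.

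Spp1: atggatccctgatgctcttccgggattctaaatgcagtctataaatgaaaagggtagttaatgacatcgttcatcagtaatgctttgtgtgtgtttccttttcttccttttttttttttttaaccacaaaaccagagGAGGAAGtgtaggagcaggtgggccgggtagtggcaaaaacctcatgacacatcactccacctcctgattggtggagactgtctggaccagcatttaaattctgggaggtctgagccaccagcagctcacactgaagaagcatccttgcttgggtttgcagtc

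Mrc1: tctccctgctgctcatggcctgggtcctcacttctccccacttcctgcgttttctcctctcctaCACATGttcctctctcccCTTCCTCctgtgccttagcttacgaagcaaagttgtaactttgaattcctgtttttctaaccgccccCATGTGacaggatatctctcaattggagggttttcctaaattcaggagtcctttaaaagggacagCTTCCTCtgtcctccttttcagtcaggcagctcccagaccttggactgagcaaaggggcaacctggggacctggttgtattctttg

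Trem2: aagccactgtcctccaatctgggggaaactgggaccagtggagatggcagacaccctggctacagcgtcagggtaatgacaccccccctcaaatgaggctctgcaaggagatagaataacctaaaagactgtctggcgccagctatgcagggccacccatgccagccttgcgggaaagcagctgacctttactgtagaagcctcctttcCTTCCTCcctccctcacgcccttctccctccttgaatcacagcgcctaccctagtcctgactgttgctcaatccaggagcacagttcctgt

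The Mrc1 region held the PU.1 core at 2 positions, from -168 to -162 and from -36 to -30, and an E-box at 2 positions, from -186 to -181 and from -101 to -96. The Trem2 region held the PU.1 core from -41 to -35, and the Spp1 region held it from -113 to -107. The start regions of Cd68, Cd163, Gpnmb and Apoe held neither motif. For Folr2, which has 2 annotated starts, an E-box lay from -155 to -150 at 1 of them. Among 32851 mouse promoters of this length, 13.6% held the PU.1 core and 20.4% held one of these E-box forms, so both motifs are common and a match describes the letters only.

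The deposited values were counts estimated per gene, and the totals per tumor ran from 23541733 to 33950805 (median 28797552). Levels are given as CPM, the counts scaled to the effective size of each library, for which 3 counts were worth between 0.0822 and 0.159 CPM, so that all members lay well above the limit of detection in every tumor. The macrophage label was checked on 16 lineage genes, none of which was at or under that limit throughout any group. Their summed level was 2561 to 6659 CPM in the PBS tumors and 7450 to 20799 CPM in the ICB tumors. A large part of it was Lyz2, at 999 to 4002 CPM in the PBS tumors and 3269 to 11455 CPM in the ICB tumors. The tumor label was checked on 6 mesothelial genes, of which 1 was at or under the limit in every tumor of each group. Of the 6, 4 passed the filter on low counts. Msln, which encodes mesothelin, reached 327, 358, 289 and 271 CPM in the PBS tumors, while Wt1 and Krt19 averaged close to the limit there. The check therefore rested mainly on Msln. A pair of tumors stood apart. Cisplatin+ICB replicate 1 combined 54.3 CPM of Csf1r, the lowest of any tumor, with 4186 CPM of Spp1, the highest, and 5-FU+ICB replicate 5 held 589 CPM of summed B cell markers, against at most 72.9 CPM in any other tumor, and 129 CPM of Spp1, the lowest. On the CPM scale the tests of the members against PBS in these groups are given with and without them. Levels set against another gene are given without them for only some members.

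The members differed widely in abundance in the PBS tumors. Per kilobase of exon, the PBS mean was 2026 CPM for Spp1, 460 for Apoe, 160 for Cd68, 60.5 for Csf1r, 51.5 for Trem2, 23.4 for Adgre1, 19.9 for Mrc1, 15.4 for Folr2, 1.82 for Gpnmb and 1.30 for Cd163. The top of this order was not the same in every treatment. On the same per-kilobase scale Apoe stood above Spp1 in the ICB tumors (1594 against 896 CPM), the 5-FU tumors (1531 against 824) and the 5-FU+ICB tumors (1661 against 533), while Spp1 stood above Apoe in the cisplatin tumors (1739 against 458) and the cisplatin+ICB tumors (1176 against 813). The cisplatin+ICB order rested on replicate 1, and without it Apoe stood above Spp1 there too (875 against 834). Cd163 was the least abundant member in the PBS tumors, but in the ICB tumors (6.42 against 4.43 CPM per kilobase), the 5-FU tumors (8.30 against 2.84) and the 5-FU+ICB tumors (13 against 3.36) it stood above Gpnmb.

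**Figure D1:**
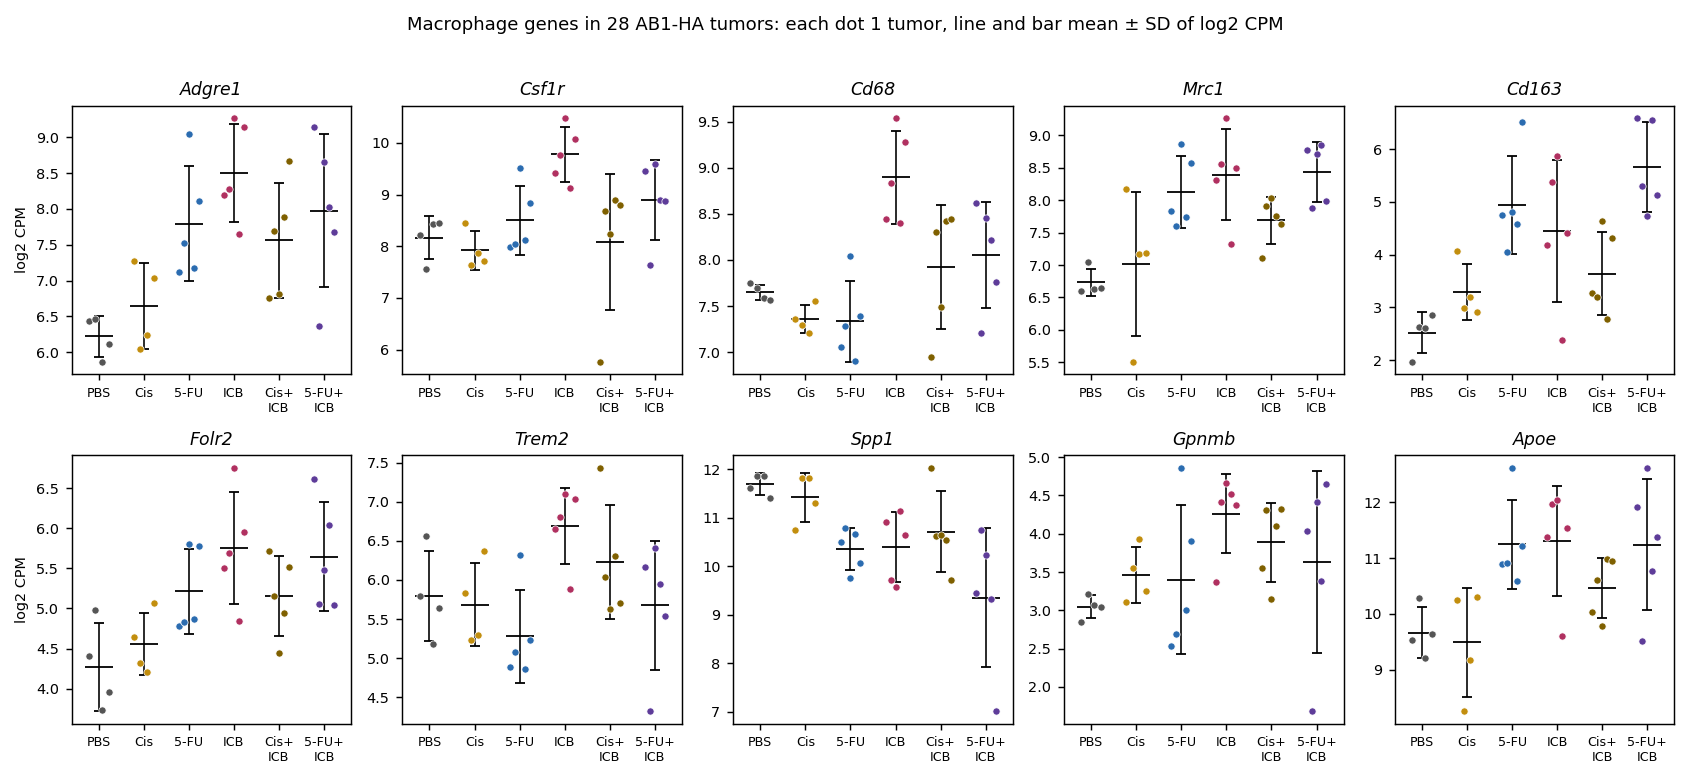
Level of each of the 10 member genes in each of the 28 tumors, as log2 CPM, by treatment group, with points for tumors and lines for the group mean ± SD. By group mean, Spp1 is highest in PBS and cisplatin, while Adgre1, Mrc1 and Cd163 are lowest in PBS. The highest single Spp1 value is in cisplatin+ICB replicate 1 and the lowest single Mrc1 value in cisplatin replicate 2.

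The question of the first comparisons was how each treatment differed from PBS, and the 5 of them share the same 4 PBS tumors. A gene was called changed when the edgeR quasi-likelihood test gave a Benjamini-Hochberg adjusted p under 0.05 over all genes tested and a log2 fold change beyond 0.5. With ICB alone, 8 of the 10 members rose and none fell, where 28.0% of all genes were called (15.5% higher), and the groups did not overlap for 6 members, where 36.5% of all genes did not overlap. The 10 members had a median log2 fold change of 1.59 against -0.06 over all genes. With 5-FU+ICB, 5 members rose and 1 fell, where 31.4% of all genes were called (18.9% higher, 12.5% lower), and 4 members did not overlap, where 24.9% of all genes did not. Without replicate 5 the same numbers rose and fell, where 20.3% of all genes were called.

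With 5-FU alone 3 members rose, Adgre1, Mrc1 and Cd163, where 4.45% of all genes were called (2.84% higher), and 5 did not overlap with PBS, where 26.4% of all genes did not. That comparison rested on single tumors: the share of all genes called was 0.237%, 0.813%, 0.501% and 1.19% without PBS replicates 1 to 4, 0.953% and 0.552% without 5-FU replicates 3 and 5, and from 3.24% to 5.25% without the others. With cisplatin alone no member was called, and none of the 10 had an unadjusted p under 0.05. Over all genes 0% were called by edgeR after cisplatin, 296 genes had an unadjusted p under 0.05, and DESeq2 called 0 members and 0.00822% of all genes. The values of the other 8 members after cisplatin ran from -0.25 (Csf1r) to 0.54 (Mrc1) on the log2 scale, with Adgre1 at 0.49, Gpnmb at 0.45, Folr2 at 0.25, Apoe at -0.01, Trem2 at -0.12 and Spp1 at -0.22. For 2 members the cisplatin and PBS tumors did not overlap, Cd163 (higher) and Cd68 (lower), where 3.38% of all genes did not overlap. With cisplatin+ICB edgeR called no member, and 4 had an unadjusted p under 0.05, where edgeR called 4.36% of all genes (3.42% higher) and 4170 genes had an unadjusted p under 0.05. DESeq2 called 1 member (Adgre1) and 7.74% of all genes. Without cisplatin+ICB replicate 1 edgeR called 3 members (Adgre1, Mrc1 and Spp1), in a fit that called 32.1% of all genes. Adgre1 and Mrc1 did not overlap between the cisplatin+ICB and PBS tumors, where 8.08% of all genes did not.

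**Figure D2:**
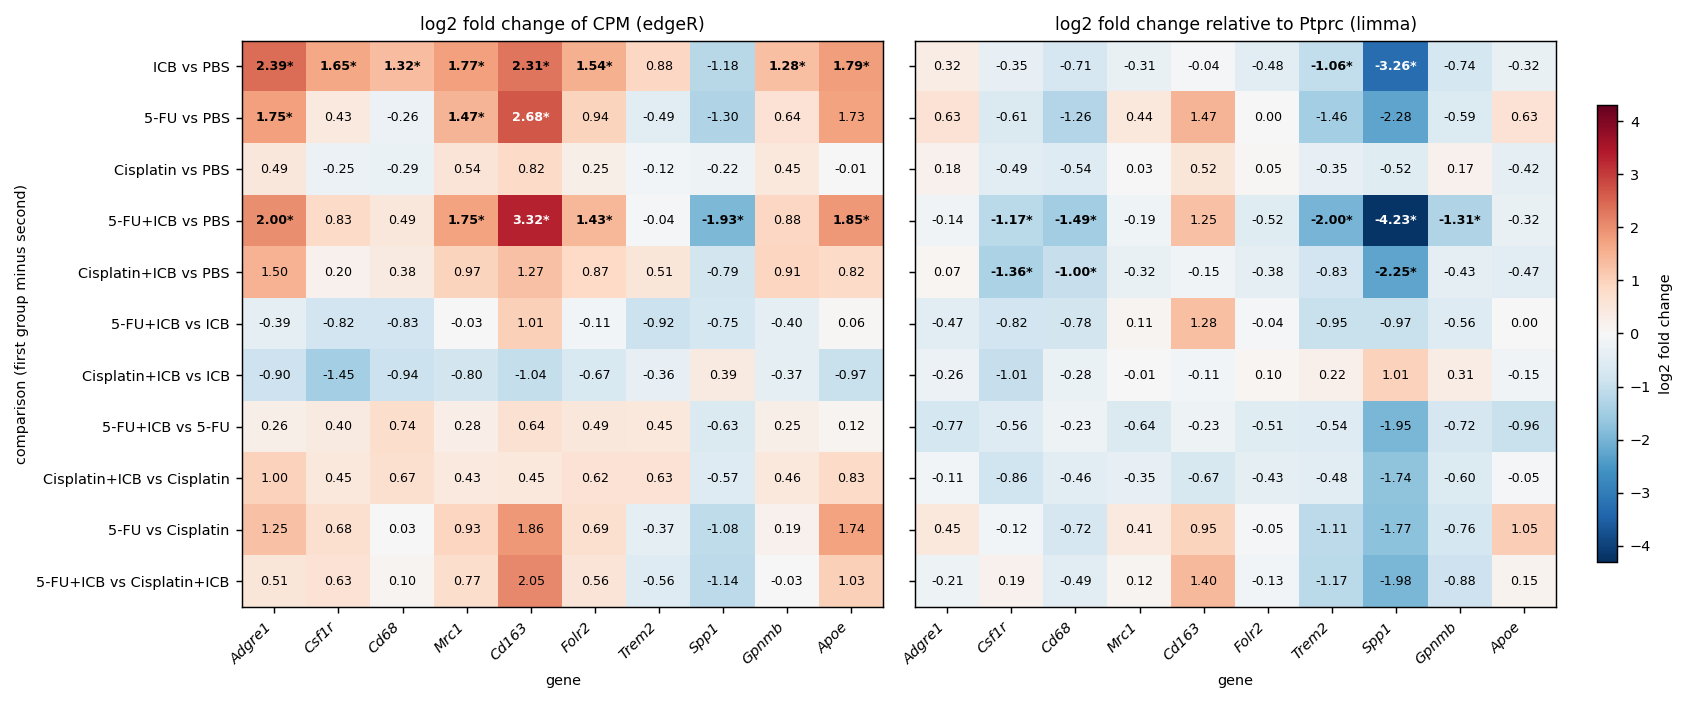
Log2 fold changes of the members in each comparison of groups, on the CPM scale (edgeR, left) and relative to Ptprc (limma, right), with an asterisk where a value was called. On the CPM scale 8 members are called in ICB against PBS and none in cisplatin against PBS.

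Coordinates are those of GENCODE M21 on GRCm38, in which all 10 members are protein-coding, and span the whole gene. Among the lineage genes, Adgre1 (chr17:57358691-57483527, + strand), which encodes the adhesion receptor F4/80 used to identify mouse macrophages, was measured at 86.5, 88.4, 58.2 and 69.4 CPM in the PBS tumors. It reached 293, 311, 617, 201 and 565 CPM in the ICB tumors. All 5 ICB tumors lay above all 4 PBS tumors, and the mean was 5.26-fold higher (log2 fold change 2.39, SE 0.52, adjusted p = 0.00289 by edgeR). In the 5-FU tumors Adgre1 stood at 138, 184, 527, 145 and 276 CPM, also without overlap with PBS (3.36-fold, log2 1.75, SE 0.50, adjusted p = 0.0459 by edgeR). That call was lost when any 1 of the 4 PBS tumors was left out (adjusted p from 0.0934 to 0.124) and without 5-FU replicate 3 (log2 1.30, adjusted p = 0.151), which had the highest level of its group, or replicate 5 (1.72, adjusted p = 0.102). In the 5-FU+ICB tumors the level was 566, 82.0, 404, 261 and 204 CPM, and replicate 2 lay within the PBS range (4.01-fold, log2 2.00, adjusted p = 0.00589 by edgeR). Without replicate 5 that log2 fold change was 2.12 (adjusted p = 0.00920). In the cisplatin+ICB tumors Adgre1 was measured at 108, 207, 112, 236 and 405 CPM, all above the PBS tumors (log2 1.5, adjusted p = 0.0782 by edgeR), and without replicate 1 the log2 fold change was 1.66 with an adjusted p of 0.0138, which passed the threshold in the fit that called 32.1% of all genes.

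Csf1r, on chromosome 18, the receptor for CSF1 and IL-34, was measured at 297, 190, 345 and 350 CPM in the PBS tumors and at 686, 871, 1433, 560 and 1087 CPM in the ICB tumors, which did not overlap (3.14-fold, log2 1.65, SE 0.47, adjusted p = 0.0130 by edgeR). In the 5-FU tumors it was 254, 263, 737, 278 and 455 CPM, within the PBS range apart from replicates 3 and 5, which were higher (log2 0.43, SE 0.45, adjusted p = 0.515). The 5-FU+ICB tumors held 703, 199, 770, 478 and 469 CPM (log2 0.83, adjusted p = 0.157 by edgeR, and 0.87 without replicate 5) and the cisplatin+ICB tumors 54.3, 413, 304, 476 and 446 CPM (log2 0.20, adjusted p = 0.854), of which replicate 1 was the lowest of all 28 tumors. Without that tumor the cisplatin+ICB value was 0.47 (adjusted p = 0.323). The gene Hmgxb3 overlaps the 3′ end of Csf1r on the opposite strand and was measured at 7.10 to 45.1 CPM; how reads were assigned to strands was not given in the sources used here.

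Cd68 (chr11:69664213-69666153, − strand), which encodes a lysosomal membrane protein abundant in macrophages, was the steadiest member, with a 6.22-fold range over the 28 tumors. It stood at 215, 207, 193 and 189 CPM in the PBS tumors and at 348, 457, 744, 337 and 621 CPM in the ICB tumors (2.50-fold, log2 1.32, SE 0.32, adjusted p = 0.00518 by edgeR). In the 5-FU tumors it was 133, 155, 264, 120 and 168 CPM, so that 4 of the 5 lay below every PBS tumor (log2 -0.26, SE 0.30, adjusted p = 0.569), and in the cisplatin tumors 164, 157, 147 and 189 CPM, where replicate 4 lay just under the lowest PBS tumor (log2 -0.29, adjusted p = 1). The 5-FU+ICB tumors held 394, 148, 351, 298 and 218 CPM (log2 0.49, adjusted p = 0.217 by edgeR, and 0.57 without replicate 5). The cisplatin+ICB tumors held 124, 316, 179, 344 and 348 CPM (log2 0.38, adjusted p = 0.501, and 0.56 without replicate 1). The ICB group therefore had the highest mean of all 3 lineage genes.

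The scavenger receptors followed another order. Cd163 (chr6:124304656-124330527, + strand), the hemoglobin-haptoglobin receptor of resident-like macrophages, had the largest called rise of the members in 5-FU and in 5-FU+ICB. In the PBS tumors it was measured at 3.85, 6.14, 6.07 and 7.21 CPM. The 5-FU tumors held 26.7, 16.5, 28.1, 23.9 and 91.1 CPM and the 5-FU+ICB tumors 96.2, 39.3, 26.3, 94.2 and 34.9 CPM, and each of these 10 tumors lay above all PBS tumors. The mean was 6.39-fold higher after 5-FU (log2 2.68, SE 0.61, adjusted p = 0.0199 by edgeR) and 9.99-fold higher after 5-FU+ICB (log2 3.32, SE 0.63, adjusted p = 0.00138). The 5-FU call was lost without PBS replicate 1, 2 or 3 (adjusted p from 0.0574 to 0.0918) and without 5-FU replicate 5, the tumor at 91.1 CPM (log2 2.03, adjusted p = 0.0719 by edgeR). The 5-FU+ICB call was kept without replicate 5 (log2 3.46, adjusted p = 0.00209). In the ICB tumors Cd163 ranged widely, 18.2, 41.4, 58.1, 5.18 and 21.3 CPM, and replicate 4 lay inside the PBS range, with a mean 4.95-fold above PBS (log2 2.31, SE 0.60, adjusted p = 0.00803 by edgeR). The cisplatin tumors stood at 16.7, 7.89, 9.06 and 7.46 CPM, just above the PBS tumors (log2 0.82, adjusted p = 1), and the cisplatin+ICB tumors at 9.65, 9.09, 24.8, 6.84 and 19.7 CPM (log2 1.27, adjusted p = 0.191). Without replicate 1 that value was 1.37 with an adjusted p of 0.0780.

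Mrc1 (chr2:14229392-14332057, + strand), which encodes the mannose receptor CD206, was measured at 96.9, 132, 99 and 101 CPM in the PBS tumors. It was 317, 376, 614, 160 and 362 CPM in the ICB tumors (log2 1.77, SE 0.40, adjusted p = 0.00375 by edgeR), 228, 195, 465, 214 and 381 CPM in the 5-FU tumors (log2 1.47, SE 0.40, adjusted p = 0.0371) and 435, 235, 416, 458 and 253 CPM in the 5-FU+ICB tumors (log2 1.75, SE 0.40, adjusted p = 0.00335, and log2 1.85, adjusted p = 0.00539, without replicate 5). All 15 of these tumors lay above all PBS tumors, so Mrc1 is the member that rose in each of the 3 comparisons with no overlap. The 5-FU call was lost when any 1 of the 4 PBS tumors was left out (adjusted p from 0.0808 to 0.124) and without 5-FU replicate 3 (log2 1.25, adjusted p = 0.106) or 5 (1.36, adjusted p = 0.0966). The cisplatin+ICB tumors, at 138, 240, 261, 215 and 198 CPM, also lay above PBS (log2 0.97, adjusted p = 0.136 by edgeR), and without replicate 1 the value was 1.09 with an adjusted p of 0.0364. Cisplatin replicate 2, at 45.5 CPM, was the lowest of all tumors, and cisplatin replicate 1, at 289 CPM, lay among the 5-FU tumors.

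Folr2 (chr7:101839988-101857194, − strand), the folate receptor β of tissue-resident macrophages, stood at 21.2, 31.5, 13.2 and 15.4 CPM in the PBS tumors. It rose with ICB, at 45.2, 51.4, 108, 28.7 and 62.1 CPM, where replicate 4 lay inside the PBS range (2.91-fold, log2 1.54, SE 0.39, adjusted p = 0.00704 by edgeR). It also rose with 5-FU+ICB, at 97.9, 33.1, 44.5, 65.9 and 32.8 CPM without overlap (2.70-fold, log2 1.43, SE 0.39, adjusted p = 0.00863 by edgeR), and that call was kept without replicate 5 (log2 1.57, adjusted p = 0.00969). After 5-FU alone the level was 27.5, 28.3, 55.8, 29.2 and 54.8 CPM (log2 0.94, adjusted p = 0.118). The cisplatin+ICB tumors held 52.6, 35.4, 21.6, 30.7 and 45.7 CPM (log2 0.87, adjusted p = 0.172 by edgeR, and 0.71 without replicate 1). Gm10602 lies antisense over Folr2 and was measured at 0.935 to 2.47 CPM.

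Of the genes of the lipid-handling state, Apoe (chr7:19696109-19699188, − strand), the lipid carrier protein, rose. On the CPM scale Trem2, the lipid-sensing receptor, did not pass the test in any comparison with PBS. Apoe stood at 738, 1250, 592 and 801 CPM in the PBS tumors and at 2674, 3998, 4208, 778 and 2990 CPM in the ICB tumors, of which replicate 4 lay among the PBS tumors (3.47-fold, log2 1.79, SE 0.56, adjusted p = 0.0207 by edgeR). The ICB call was lost without PBS replicate 1 (adjusted p = 0.0584), PBS replicate 3 (0.0566) or ICB replicate 3 (0.0507). In the 5-FU tumors Apoe was 1909, 1927, 6303, 1545 and 2384 CPM, all above PBS and with replicate 3 the highest of all tumors, but it did not pass the threshold (log2 1.73, SE 0.56, adjusted p = 0.0657 by edgeR). DESeq2 gave that comparison an adjusted p of 0.0151, where it called 9.58% of all genes. In the 5-FU+ICB tumors it was 3872, 736, 6255, 1737 and 2663 CPM (3.61-fold, log2 1.85, SE 0.56, adjusted p = 0.0157), a call kept without replicate 5 (adjusted p = 0.0266) and lost without replicate 3 (log2 1.41, adjusted p = 0.0534). The cisplatin+ICB tumors held 1044, 1556, 886, 2016 and 1972 CPM (log2 0.82, adjusted p = 0.394 by edgeR, and 0.93 without replicate 1).

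Trem2 (chr17:48346401-48354147, + strand) was measured at 55.3, 94.2, 36.0 and 49.8 CPM in the PBS tumors. The ICB tumors held 100, 112, 137, 59.2 and 131 CPM, 4 of them above all PBS tumors (log2 0.88, SE 0.42, adjusted p = 0.109 by edgeR). The 5-FU tumors held 29.5, 33.8, 79.5, 29.1 and 37.6 CPM, 3 of them below all PBS tumors (log2 -0.49, SE 0.41, adjusted p = 0.409), and the 5-FU+ICB tumors 71.9, 19.8, 85.2, 61.9 and 46.5 CPM (log2 -0.04, adjusted p = 0.943, and 0.02 without replicate 5). The cisplatin+ICB tumors held 173, 65.9, 49.4, 79.2 and 52.3 CPM (log2 0.51, adjusted p = 0.506 by edgeR), and without replicate 1 that value was 0.07. The value for ICB passed the threshold when only the ICB and PBS tumors entered the fit (log2 0.91, adjusted p = 0.0442). Gpnmb (chr6:49036546-49070929, + strand), a lysosomal and melanosomal glycoprotein, was of low abundance throughout. It stood at 7.14, 9.22, 8.35 and 8.17 CPM in the PBS tumors and at 10.2, 21.2, 25.1, 22.8 and 20.7 CPM in the ICB tumors (2.43-fold, log2 1.28, SE 0.47, adjusted p = 0.0410 by edgeR). Leaving out any PBS tumor or any of ICB replicates 2 to 5 ended that call (adjusted p from 0.0583 to 0.0980), as did fitting with no filter on low counts (0.0511), with the replicate block (0.0643) or on the matrix of the 5-FU arm alone (0.0519). In the 5-FU tumors Gpnmb was 5.73, 6.40, 29.0, 7.94 and 14.9 CPM (log2 0.64, adjusted p = 0.334 by edgeR) and in the cisplatin+ICB tumors 11.7, 19.7, 8.78, 17.1 and 19.9 CPM (log2 0.91, adjusted p = 0.245, and 0.99 without replicate 1). In the 5-FU+ICB tumors Gpnmb was 16.3, 3.13, 21.2, 10.3 and 25.0 CPM (log2 0.88, adjusted p = 0.136, and 0.63 without replicate 5) and without replicate 2, at 3.13 CPM the lowest of all tumors, the value was 1.14 with an adjusted p of 0.0273. Melanocyte and keratinocyte markers, which could bear on Gpnmb, summed to 422 CPM in ICB replicate 2 against at most 22.5 CPM in any other tumor, and their part in the result was not tested; Gpnmb in that tumor, 21.2 CPM, lay within the range of the other ICB tumors.

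Spp1 (chr5:104435118-104441050, + strand), which encodes the secreted phosphoprotein osteopontin, was on the CPM scale the 1 member that fell in a comparison with PBS. It was measured at 3151, 3738, 3736 and 2729 CPM in the PBS tumors and at 1721, 3594, 3612 and 2537 CPM in the cisplatin tumors. In the 5-FU+ICB tumors it was 704, 1722, 1194, 643 and 129 CPM, every one below all PBS tumors. Spp1 fell there by 1.93 on the log2 scale (SE 0.49, adjusted p = 0.00612 by edgeR), a mean 3.8-fold lower, and the call was kept without replicate 5 (log2 -1.65, adjusted p = 0.0113). The ICB tumors, at 1932, 840, 758, 2257 and 1591 CPM, and the 5-FU tumors, at 1458, 1764, 867, 1622 and 1076 CPM, also lay below all PBS tumors, but neither difference passed the threshold (log2 -1.18, SE 0.49, adjusted p = 0.0670, and log2 -1.30, SE 0.49, adjusted p = 0.0995 by edgeR). Both passed when only the groups compared entered the fit (adjusted p = 0.0165 and 0.0117), and the ICB value also passed without ICB replicate 4 (log2 -1.38, adjusted p = 0.0465). The cisplatin+ICB tumors held 4186, 1569, 1610, 1483 and 837 CPM (log2 -0.79, adjusted p = 0.355), and without replicate 1 the difference was -1.28 with an adjusted p of 0.0378, again in the fit that called 32.1% of all genes. Gm42793 lies within Spp1 on the same strand and was measured at 0 to 5.27 CPM.

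Spp1 is also made by osteoclasts and by tumor cells, so their markers were set beside it. Of 7 osteoclast genes, none was at or under the limit of detection throughout a group. They summed to 1281 to 2239 CPM in the PBS tumors, 600 to 2022 CPM in ICB, 195 to 331 CPM in 5-FU, 684 to 2311 CPM in cisplatin, 167 to 814 CPM in 5-FU+ICB and 693 to 3347 CPM in cisplatin+ICB. Against PBS, 6 of the 7 fell after 5-FU, among them Acp5 (log2 -3.05, adjusted p = 0.00551 by edgeR) and Ctsk (log2 -2.63, adjusted p = 0.0130), where 1.61% of all genes were called lower. After 5-FU+ICB 4 of the 7 fell, where 12.5% of all genes were called lower, and 3 fell without replicate 5, where 6.70% were. None was called after ICB, cisplatin or cisplatin+ICB. Without cisplatin+ICB replicate 1, 2 fell, in a fit that called 18.5% of all genes lower. In the ICB tumors the 7 pointed both ways, with Acp5 at -0.62, Ctsk at -0.38 and Atp6v0d2 at -0.05 against Ocstamp at 0.33, Dcstamp at 0.76, Oscar at 0.85 and Calcr at 1.17 on the log2 scale (median 0.33), and none passed the test (adjusted p from 0.110 to 0.913 by edgeR). Mesothelin (Msln) was measured at 34.4, 167, 67.8, 53.4 and 0.5 CPM in the 5-FU+ICB tumors, all below PBS (log2 -2.27, adjusted p = 0.0211 by edgeR), a call kept without replicate 5 (log2 -1.95, adjusted p = 0.0157), and at 122, 52.0, 57.5, 217 and 95.5 CPM in the ICB tumors (log2 -1.52, adjusted p = 0.105). Msln is the most abundant of the 4 mesothelial genes tested, and the others did not follow it. Of the 4, 2 rose and 1 fell with 5-FU+ICB (median log2 fold change 2.16), Wt1 averaging 1.54 CPM there against 0.112 CPM in PBS and Krt19 10.4 against 0.198 CPM. Without replicate 5 the median was 1.32 and the Krt19 call was lost (log2 1.88 in place of 5.68, adjusted p = 0.104 by edgeR). Wt1 was also the 1 of the 4 that rose with ICB, with 5-FU and with cisplatin+ICB, and Pdpn was not called in any of these comparisons. The lowest Spp1 and the lowest Msln, 0.50 CPM, came from the same tumor, 5-FU+ICB replicate 5. The highest of both, 4186 and 654 CPM, came from cisplatin+ICB replicate 1, which also had the highest osteoclast sum, 3347 CPM. Acp5 and Ctsk made up most of that sum (1719 and 1511 CPM). Oscar (4.98 CPM) and Calcr (0.848 CPM) were highest not there but in ICB replicate 4 (16.1 and 4.84 CPM). The part of osteoclasts and of tumor cells in the Spp1 values was not tested.

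**Figure D3:**
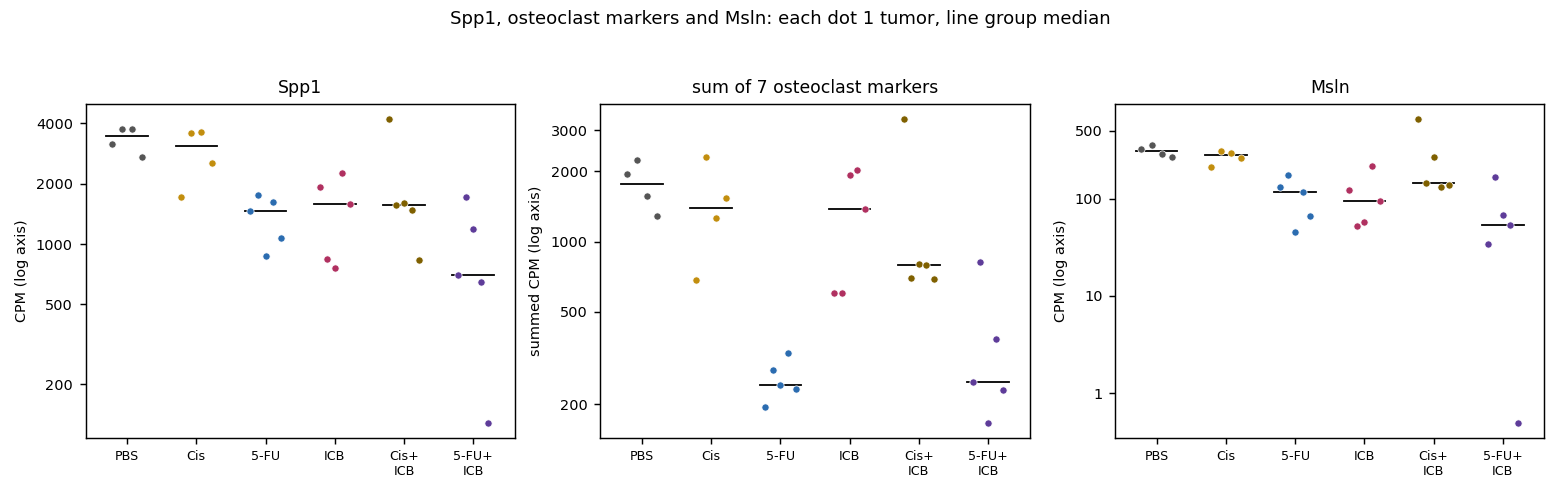
Spp1, the sum of 7 osteoclast markers and Msln, the most abundant of the mesothelial genes, in each tumor, in CPM on log axes, by treatment group, with points for tumors and a line for the group median. The osteoclast sum, mostly Acp5 and Ctsk, is at most 331 CPM in the 5-FU tumors, and the lowest Spp1 and Msln belong to the same 5-FU+ICB tumor. The other mesothelial genes are not drawn.

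Markers of other leukocytes also differed between groups, and no gene of these lists was at or under the limit of detection throughout a group. Against PBS, 1 of 4 monocyte, 3 of 5 neutrophil, 4 of 5 dendritic cell and 4 of 4 T cell markers rose with ICB, and 2 of 4, 1 of 5, 4 of 5 and 4 of 4 rose with 5-FU+ICB, where 15.5% and 18.9% of all genes were called higher. Csf1r, Adgre1 and Apoe are also made by monocytes and dendritic cells. The B cell markers, 3 in all, rose with 5-FU+ICB (median log2 fold change 6.70), and none of them was called without replicate 5, in a fit that called 13.6% of all genes higher. Without that tumor 3 of 5 dendritic cell markers rose, and the counts for monocytes, neutrophils and T cells were as before. With cisplatin+ICB 3 of 5 neutrophil and 2 of 4 T cell markers rose, where 3.42% of all genes were called higher. Without replicate 1 these were 4 of 5 and 4 of 4, and 1 of 4 monocyte and 1 of 5 dendritic cell markers also rose. That fit called 13.6% of all genes higher. With 5-FU alone none of these markers was called. The monocyte markers summed to 176 to 346 CPM in PBS, 273 to 479 CPM in ICB, 172 to 515 CPM in 5-FU and 200 to 1166 CPM in 5-FU+ICB. The dendritic cell markers summed to 18.3 to 27.4 CPM in PBS, 36.0 to 109 CPM in ICB, 14.9 to 73.8 CPM in 5-FU and 14.5 to 223 CPM in 5-FU+ICB. The neutrophil markers summed to 9.32 to 18.5 CPM in PBS and 59.5 to 166 CPM in ICB, and the T cell markers to 16.4 to 21.3 CPM and 107 to 383 CPM, without overlap. The 5 endothelial markers, relevant to Mrc1, which sinusoidal and lymphatic endothelium also express, summed to 55.1 to 101 CPM in PBS, 110 to 211 CPM in ICB and 127 to 538 CPM in 5-FU+ICB, and 2 of 5 rose with ICB and 5 of 5 with 5-FU+ICB (3 of 5 without replicate 5). Fibroblast markers summed to 641 to 2111 CPM in PBS and 2314 to 4445 CPM in 5-FU, where none of the 4 was called. The part of these cells in the member values was not tested.

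The order of the 6 groups differed between members. By mean log2 CPM, Adgre1 ran from ICB through 5-FU+ICB, 5-FU, cisplatin+ICB and cisplatin to PBS, and Folr2 followed the same order. In both, the step from cisplatin+ICB to cisplatin was larger than the greater SD of the 2 groups (1.15 and 1.18 SD) and all other neighbors differed by less than 1 SD. Csf1r ran from ICB through 5-FU+ICB, 5-FU, PBS and cisplatin+ICB to cisplatin, with a step above 1 SD only after ICB (1.15 SD). Cd68 ran from ICB through 5-FU+ICB, cisplatin+ICB, PBS and cisplatin to 5-FU, with steps above 1 SD after ICB (1.48 SD) and after PBS (1.94 SD). Cd163 ran from 5-FU+ICB through 5-FU, ICB, cisplatin+ICB and cisplatin to PBS, and only the last step exceeded 1 SD (1.45 SD). Apoe ran from ICB through 5-FU, 5-FU+ICB, cisplatin+ICB and PBS to cisplatin, and only the step from cisplatin+ICB to PBS exceeded 1 SD (1.49 SD). In Mrc1 (5-FU+ICB, ICB, 5-FU, cisplatin+ICB, cisplatin, PBS), Trem2 (ICB, cisplatin+ICB, PBS, cisplatin, 5-FU+ICB, 5-FU), Gpnmb (ICB, cisplatin+ICB, 5-FU+ICB, cisplatin, 5-FU, PBS) and Spp1 (PBS, cisplatin, cisplatin+ICB, ICB, 5-FU, 5-FU+ICB) no neighbors differed by 1 SD. ICB stood first for 7 members and PBS last for 5. Without 5-FU+ICB replicate 5 and cisplatin+ICB replicate 1, Adgre1, Mrc1, Cd163 and Apoe kept their orders and the other 6 members did not. Cisplatin+ICB then stood above 5-FU and PBS for Csf1r, whose step after ICB was 0.99 SD, above 5-FU+ICB for Cd68, and below ICB for Spp1. For Folr2, 5-FU+ICB came first, for Trem2 it passed cisplatin, and for Gpnmb it fell below 5-FU. Steps above 1 SD then also lay after ICB for Trem2 (1.59 SD) and between cisplatin and ICB for Spp1 (1.44 SD).

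The combinations were then compared with the single treatments, and edgeR called no member in any of these comparisons. Between 5-FU+ICB and ICB, 2 members had an unadjusted p under 0.05, Cd68 and Trem2, both lower in the combination (log2 -0.83 and -0.92, and -0.75 and -0.85 without 5-FU+ICB replicate 5), where 1689 genes did and 0.270% of all genes were called. The other members there were Csf1r at -0.82, Spp1 at -0.75, Gpnmb at -0.40, Adgre1 at -0.39, Folr2 at -0.11, Mrc1 at -0.03, Apoe at 0.06 and Cd163 at 1.01. Between cisplatin+ICB and ICB 9 of the 10 members had a lower value in the combination, with a median of -0.85, and 3 had an unadjusted p under 0.05, Csf1r, Mrc1 and Cd68, where 3208 genes did and 0% were called. Csf1r did not overlap between these groups (log2 -1.45, SE 0.43, adjusted p = 0.247 by edgeR), where 1.46% of all genes did not, and without cisplatin+ICB replicate 1 its log2 fold change was -1.18. The other members there were Cd163 at -1.04, Apoe at -0.97, Cd68 at -0.94, Adgre1 at -0.90, Mrc1 at -0.80, Folr2 at -0.67, Gpnmb at -0.37, Trem2 at -0.36 and Spp1 at 0.39. Without that tumor Trem2 was at -0.81 and Spp1 at -0.10. Against its own chemotherapy, the addition of ICB gave 1 member with an unadjusted p under 0.05 in each case, Cd68, where 2595 genes did for 5-FU and 2286 for cisplatin, with 0% and 0.146% of all genes called. Cd68 was at 0.74 with 5-FU, and the other members at 0.64 for Cd163, 0.49 for Folr2, 0.45 for Trem2, 0.40 for Csf1r, 0.28 for Mrc1, 0.26 for Adgre1, 0.25 for Gpnmb, 0.12 for Apoe and -0.63 for Spp1. With cisplatin Cd68 was at 0.67, and the other members at 1.0 for Adgre1, 0.83 for Apoe, 0.63 for Trem2, 0.62 for Folr2, 0.46 for Gpnmb, 0.45 for Csf1r and Cd163, 0.43 for Mrc1 and -0.57 for Spp1. Without cisplatin+ICB replicate 1, Cd68 was higher in cisplatin+ICB than in cisplatin (log2 0.85, adjusted p = 0.0494 by edgeR), in a fit that called 12.4% of all genes. Trem2 was then at 0.19 and Spp1 at -1.06. DESeq2 called no member in these 4 comparisons, and 1.30% of all genes for 5-FU+ICB against ICB, 0.271% for cisplatin+ICB against ICB, 1.53% for 5-FU+ICB against 5-FU and 2.29% for cisplatin+ICB against cisplatin.

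The 2 chemotherapies were compared with each other, alone and with ICB. Between 5-FU and cisplatin no member was called by edgeR, and 5 had an unadjusted p under 0.05, where 2876 genes had such a p and 0.362% were called. DESeq2 called 2 members and 3.85% of all genes. These 2 were Cd163 (edgeR log2 1.86, adjusted p = 0.135) and Apoe (log2 1.74, adjusted p = 0.144), both higher after 5-FU, and Apoe did not overlap, where 12.5% of all genes did not. The other members were Adgre1 at 1.25, Mrc1 at 0.93, Folr2 at 0.69, Csf1r at 0.68, Gpnmb at 0.19, Cd68 at 0.03, Trem2 at -0.37 and Spp1 at -1.08. Between 5-FU+ICB and cisplatin+ICB no member was called by edgeR, and 3 had an unadjusted p under 0.05, where 4754 genes had such a p and 0.297% were called. DESeq2 called Cd163 and 7.51% of all genes. Cd163 did not overlap there, where 1.92% of all genes did not, and was higher with 5-FU (log2 2.05, SE 0.54, adjusted p = 0.0649 by edgeR). Its adjusted p was 0.0278 without 5-FU+ICB replicate 2, 0.0404 without cisplatin+ICB replicate 5, 0.191 without 5-FU+ICB replicate 5 and 0.144 without cisplatin+ICB replicate 1. The share of all genes called was 11.6% and 6.10% in the first pair of these fits and 0.0163% and 0.0596% in the second. The other members were Apoe at 1.03, Mrc1 at 0.77, Csf1r at 0.63, Folr2 at 0.56, Adgre1 at 0.51, Cd68 at 0.10, Gpnmb at -0.03, Trem2 at -0.56 and Spp1 at -1.14. Without cisplatin+ICB replicate 1 Trem2 was at -0.11 and Spp1 at -0.65. Without 5-FU+ICB replicate 2 Spp1 was called lower (log2 -1.54, adjusted p = 0.0424 by edgeR), where 11.6% of all genes were called.

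Whether a chemotherapy and ICB together differed from the sum of their separate changes was tested as an interaction. For 5-FU with ICB 9 of the 10 members had a negative interaction, so the combination lay below the sum, and edgeR called none, with 0% of all genes called. Of the members, 4 had an unadjusted p under 0.05, where 2058 genes did, and DESeq2 called none, with 0.382% of all genes called. These 4 were Adgre1 (log2 -2.14, SE 0.67, adjusted p = 0.353 by edgeR), Apoe (-1.68), Cd163 (-1.66) and Mrc1 (-1.49, adjusted p = 0.378). The other members were Csf1r at -1.25, Folr2 at -1.05, Gpnmb at -1.04, Cd68 at -0.58, Trem2 at -0.43 and Spp1 at 0.55. Without 5-FU+ICB replicate 5 Adgre1 was at -2.03 and Spp1 at 0.83, and no sign changed. For cisplatin with ICB 9 of the 10 were also negative, 2 had an unadjusted p under 0.05, where 1696 genes did, and neither edgeR (0% of all genes) nor DESeq2 (0.00548%) called a member. Those 2 were Cd163 (-1.86) and Mrc1 (-1.34), and the others were Adgre1 at -1.39, Csf1r at -1.20, Apoe at -0.96, Folr2 at -0.92, Gpnmb at -0.82, Cd68 at -0.65, Trem2 at -0.24 and Spp1 at 0.61. Without cisplatin+ICB replicate 1 Cd163 was at -1.75, Mrc1 at -1.22, Trem2 at -0.69 and Spp1 at 0.12, and no sign changed.

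To see the members apart from the total of white blood cells, each was expressed relative to Ptprc, which encodes CD45 and is carried by all leukocytes, as the log2 difference of their CPM, tested with limma. Ptprc was measured at 92.2, 105, 75.0 and 96.0 CPM in the PBS tumors and at 314, 419, 443, 245 and 402 CPM in the ICB tumors (log2 1.99, SE 0.44, adjusted p = 0.00317 by edgeR), and it also rose in 5-FU+ICB (log2 2.13, adjusted p = 0.00193). Since Ptprc is the divisor, most genes were lower against it: 77.5% of all genes were called lower in ICB than in PBS and 78.7% in either direction. Of the 10 members 2 were called lower, Spp1 (log2 -3.26, adjusted p = 0.00162 by limma) and Trem2 (log2 -1.06, adjusted p = 0.0415), a smaller share than the background. The median of the members was -0.42 where that of all genes was -2.02, and the other 8 members were Adgre1 at 0.32, Cd163 at -0.04, Mrc1 at -0.31, Apoe at -0.32, Csf1r at -0.35, Folr2 at -0.48, Cd68 at -0.71 and Gpnmb at -0.74. The Trem2 call was kept in 1 of the 9 fits that left out a tumor (without PBS replicate 3) and lost in the other 8 (adjusted p from 0.0521 to 0.120), and it was lost with the mean of 4 leukocyte genes as the reference (log2 -0.87, adjusted p = 0.0636). The Spp1 call was kept in all 9 (log2 -3.58 to -2.97).

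In single tumors, Spp1 relative to Ptprc was 5.09, 5.15, 5.64 and 4.83 log2 units in the PBS tumors and 2.62, 1.00, 0.78, 3.20 and 1.99 in the ICB tumors. It was 0.59, 4.03, 1.80, 0.78 and -2.49 in the 5-FU+ICB tumors, where replicate 5 held the only negative value of all 28 tumors. Neither treated group overlapped with PBS. On this scale 3 of the 10 members did not overlap for ICB (Cd68, Trem2 and Spp1), where 71.8% of all genes did not, and 4 for 5-FU+ICB (these and Gpnmb), where 37.7% did not. Trem2 relative to Ptprc was -0.74, -0.16, -1.06 and -0.95 in the PBS tumors, -1.65, -1.90, -1.69, -2.05 and -1.62 in the ICB tumors and -2.70, -2.40, -2.00, -2.59 and -3.96 in the 5-FU+ICB tumors, also without overlap between either treated group and PBS.

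With 5-FU+ICB, 5 members were called lower relative to Ptprc and none higher, where 75.3% of all genes were called lower and 77.0% in either direction. They were Spp1 (log2 -4.23, adjusted p = 0.00102 by limma), Trem2 (-2.00, adjusted p = 0.00102), Cd68 (-1.49, adjusted p = 0.00113), Gpnmb (-1.31, adjusted p = 0.00433) and Csf1r (-1.17, adjusted p = 0.0131). The median of the members was -0.84 and that of all genes -1.97, and the members not called were Cd163 at 1.25, Adgre1 at -0.14, Mrc1 at -0.19, Apoe at -0.32 and Folr2 at -0.52. Without 5-FU+ICB replicate 5, whose Ptprc of 723 CPM came with 589 CPM of B cell markers, 68.9% of all genes were called, Csf1r was no longer among them (log2 -0.89, adjusted p = 0.0527) and Cd163 was called higher (log2 1.65, adjusted p = 0.0175, against 1.25 and 0.0630 with that tumor). The calls of Spp1 (-3.37), Trem2 (-1.70), Gpnmb (-1.29) and Cd68 (-1.14) were kept. Among the members not called, Adgre1 and Mrc1 turned positive without that tumor, and Apoe and Folr2 moved closer to PBS. Csf1r was also lost without PBS replicate 3 (-0.98, adjusted p = 0.0557), and Cd163 was also called without 5-FU+ICB replicate 3 (1.48, adjusted p = 0.0386). Set against the mean of Adgre1 and Csf1r, a reference within the lineage, Cd163 was higher in 5-FU+ICB than in PBS (log2 1.90, adjusted p = 0.0224 by limma), while Spp1 (-3.58, adjusted p = 0.0142), Trem2 (-1.35, adjusted p = 0.0336) and Cd68 (-0.83, adjusted p = 0.0407) were lower, where 51.9% of all genes were called. Without replicate 5 Cd163 (1.99, adjusted p = 0.0405), Spp1 (-3.03) and Trem2 (-1.36) were still called and Cd68 was not (-0.80, adjusted p = 0.0566), where 44.8% of all genes were called.

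With 5-FU alone limma called no member relative to Ptprc, 4 had an unadjusted p under 0.05, and 0.162% of all genes were called. Those 4 were Cd163, the only one that was higher (log2 1.47, adjusted p = 0.0889), Spp1 (-2.28, adjusted p = 0.0860), Trem2 (-1.46, adjusted p = 0.0860) and Cd68 (-1.26, adjusted p = 0.0860), and in none of them did the 5-FU and PBS tumors overlap. Over the 10 members 6 did not overlap, these 4 with Adgre1 and Mrc1 (both higher), where 35.2% of all genes did not. Without 5-FU replicate 4 the last 3 were called (adjusted p = 0.0490 each), in a fit that called 24.7% of all genes. The other members were Adgre1 and Apoe at 0.63, Mrc1 at 0.44, Folr2 at -0.0013, Gpnmb at -0.59 and Csf1r at -0.61. Cd68 relative to Ptprc was 1.22, 0.97, 1.36 and 0.98 in the PBS tumors and -0.05, 0.12, -0.32, 0.29 and -0.67 in the 5-FU tumors. Cd163 relative to Ptprc was -4.56, -4.08, -3.61 and -3.72 in the PBS tumors and -2.36, -3.11, -3.56, -2.03 and -1.56 in the 5-FU tumors. Cd163 lay above and Cd68 below their PBS values in all 5 of the 5-FU tumors when each was set against Ptprc.

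With cisplatin+ICB, Csf1r (log2 -1.36, adjusted p = 0.0307 by limma), Cd68 (-1.0, adjusted p = 0.0331) and Spp1 (-2.25, adjusted p = 0.0358) were called lower, where 52.1% of all genes were called lower and 52.6% in either direction. These 3 calls depended on single tumors. Each was lost without PBS replicate 1, 3 or 4 or without cisplatin+ICB replicate 2, 4 or 5, with adjusted p from 0.0537 to 0.107, and Spp1 also without PBS replicate 2 (adjusted p = 0.0574). Without cisplatin+ICB replicate 1 all 3 were kept (Csf1r -1.0, Cd68 -0.98 and Spp1 -2.81) and Trem2 was called as well (log2 -1.36, adjusted p = 0.00423, against -0.83 and 0.123 with it), where 61.0% of all genes were called. The other members were Adgre1 at 0.07, Cd163 at -0.15, Mrc1 at -0.32, Folr2 at -0.38, Gpnmb at -0.43 and Apoe at -0.47. With cisplatin alone limma called no member relative to Ptprc and none had an unadjusted p under 0.05, where 0% of all genes were called. Their values were 0.52 for Cd163, 0.18 for Adgre1, 0.17 for Gpnmb, 0.05 for Folr2, 0.03 for Mrc1, -0.35 for Trem2, -0.42 for Apoe, -0.49 for Csf1r, -0.52 for Spp1 and -0.54 for Cd68. In the 6 comparisons between treated groups no member was called relative to Ptprc by limma, with 1 to 4 members at an unadjusted p under 0.05 in each, where the share of all genes called was 0.124% for 5-FU+ICB against ICB, 0.00540% for cisplatin+ICB against ICB, 0.0216% for 5-FU+ICB against 5-FU, 0.00540% for cisplatin+ICB against cisplatin, 0.0270% for 5-FU against cisplatin and 0.0594% for 5-FU+ICB against cisplatin+ICB. The 4 in 5-FU+ICB against ICB were Cd163 (1.28), Trem2 (-0.95), Csf1r (-0.82) and Cd68 (-0.78), with the others from -0.97 (Spp1) to 0.11 (Mrc1). Those in 5-FU+ICB against cisplatin+ICB were Spp1 (-1.98), Cd163 (1.40), Trem2 (-1.17) and Gpnmb (-0.88), with the others from -0.49 (Cd68) to 0.19 (Csf1r). The 3 in 5-FU+ICB against 5-FU were Spp1 (-1.95), Apoe (-0.96) and Adgre1 (-0.77), with the others from -0.72 (Gpnmb) to -0.23 (Cd163). Without 5-FU+ICB replicate 5 these 3 differences were smaller, as was that of Spp1 in 5-FU+ICB against ICB. In 5-FU against cisplatin the 3 were Spp1 (-1.77), Trem2 (-1.11) and Apoe (1.05), with the others from -0.76 (Gpnmb) to 0.95 (Cd163). Csf1r was the 1 in cisplatin+ICB against ICB (-1.01, the others from -0.28 for Cd68 to 1.01 for Spp1) and against cisplatin (-0.86, the others from -1.74 for Spp1 to -0.05 for Apoe).

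**Figure D4:**
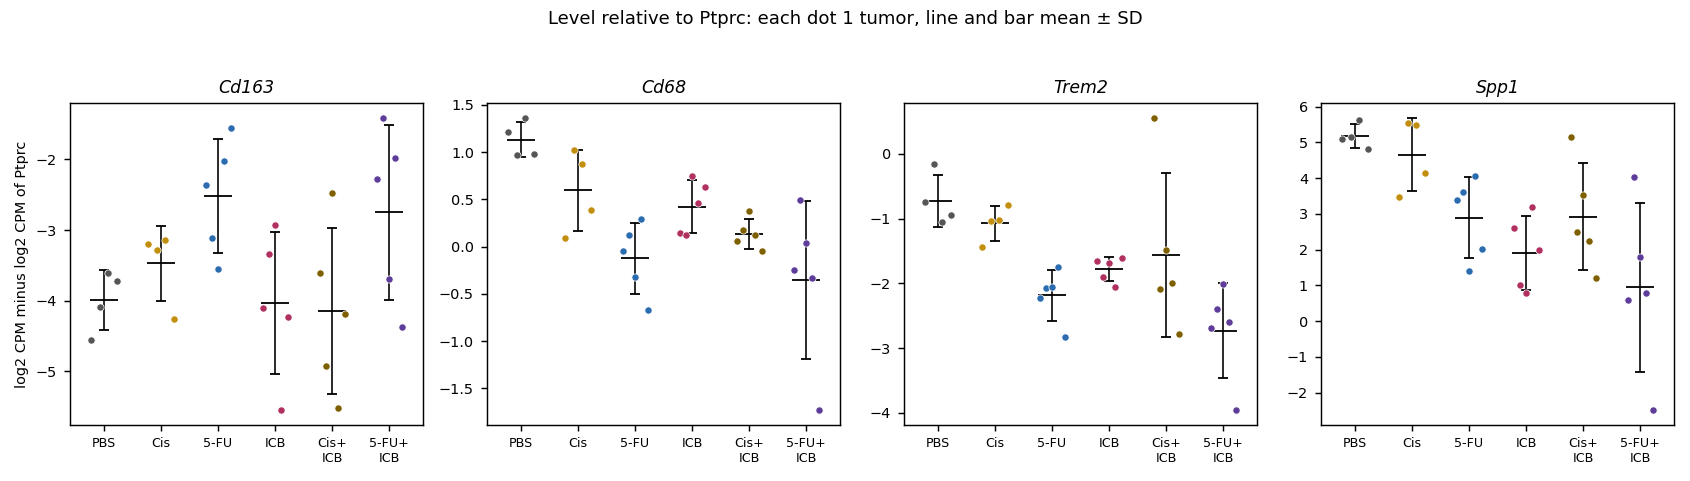
Cd163, Cd68, Trem2 and Spp1 relative to Ptprc in each tumor, as the difference of log2 CPM, by treatment group, with points for tumors and lines for the group mean ± SD. Spp1 is at or above 4.83 in the PBS tumors and at most 3.20 in the ICB tumors, and Cd163 is higher in the 5-FU tumors than in the PBS tumors.

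The members were then compared with each other among tumors of the same treatment, by correlating log2 CPM over the 28 tumors after each group's mean was subtracted, with p-values from 1e+05 permutations within groups adjusted over the 45 pairs. Of the 45 pairs 36 had a positive Pearson r and 24 of those passed an adjusted p of 0.05. The closest pair was Adgre1 and Cd68 (r = 0.903, Spearman rho = 0.926, adjusted permutation p = 0.00015 for both, and r = 0.870 without the 2 tumors farthest from the median of Adgre1). Csf1r and Cd68 had r = 0.855 (rho = 0.811, 0.785 without 2 tumors), Adgre1 and Apoe r = 0.847 (rho = 0.863, 0.781 without 2 tumors), and Trem2 and Folr2 r = 0.736 (rho = 0.799, 0.728 without 2 tumors), each with an adjusted permutation p of at most 0.000281. Csf1r and Trem2 had r = 0.0941 (rho = 0.274, adjusted permutation p = 0.703), and 0.365 without the 2 tumors farthest from the Csf1r median.

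Cd163 passed with 2 of the other 9 members. With Mrc1 it had r = 0.618 (rho = 0.625, adjusted permutation p = 0.00383 and 0.00414, r = 0.587 without 2 tumors), and with Folr2 r = 0.528 (adjusted permutation p = 0.0293) but rho = 0.389 (adjusted permutation p = 0.0997), with r = 0.394 without 2 tumors, so the pair with Folr2 did not pass by rank. By Pearson r, Adgre1, Mrc1 and Apoe each passed with 7. Spp1 passed with none in the positive direction, and its r with the other 9 ran from -0.569 to -0.0877. The pair Csf1r and Spp1 was the 1 negative pair that passed by Pearson r (r = -0.569, adjusted permutation p = 0.0204). Its rho was -0.626 (adjusted permutation p = 0.00453), and its r was -0.348 without the 2 tumors farthest from the Csf1r median. By rank, Spp1 also passed in the negative direction with Adgre1 (rho = -0.548), Apoe (-0.526), Mrc1 (-0.512) and Cd68 (-0.486). Their adjusted permutation p ran from 0.0200 to 0.0417. No other member was positively related to Spp1 within treatments. All 10 genes share the library and scaling of each tumor, and total macrophage content was not separated from state here.

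**Figure D5:**
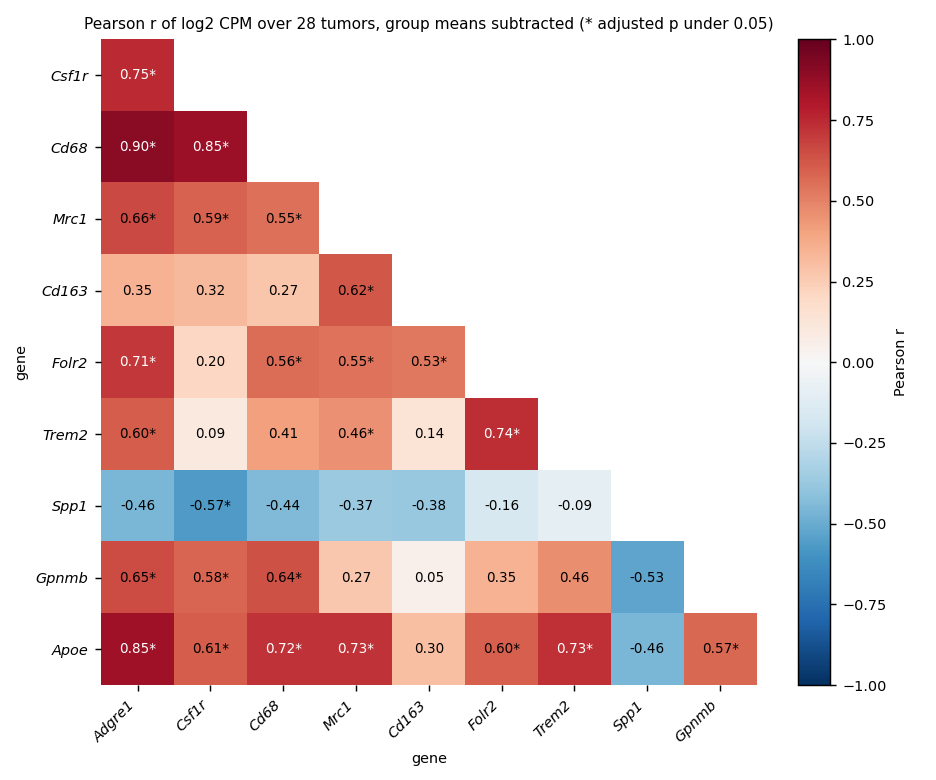
Pearson r between each pair of member genes over the 28 tumors after each group's mean log2 CPM was subtracted. The Spp1 row is negative throughout, from -0.569 to -0.0877, and Adgre1 with Cd68 is the highest at 0.903.

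The genes whose levels followed each member most closely were found by the same measure over all 18521 genes and 28 tumors, and are given as a description. They were Lrrc25 for Adgre1 (r = 0.955), Nfam1 for Csf1r (0.982), Ms4a4a for Mrc1 (0.875), Abcc3 for Cd68 (0.943), Pcolce2 for Cd163 (0.835), Tmem37 for Trem2 (0.948), Gm8810 for Gpnmb (0.873) and Cd300ld for Folr2 (0.902). Apoe was followed by C1qa and C1qb (both 0.924), subunits of the complement protein C1q. Spp1 was followed by Gm29084 (0.970), Gm42860 (0.966) and Gm43108 (0.964), predicted genes.

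Other macrophage genes, in lists fixed by name, were counted in the same comparisons with PBS. Of 16 lineage genes 13 rose with ICB, 11 with 5-FU+ICB, 2 with cisplatin+ICB and none with 5-FU, with medians of 1.82, 1.55, 0.89 and 1.06. For these and the following counts, the share of all genes called higher was 15.5% with ICB, 18.9% with 5-FU+ICB, 3.42% with cisplatin+ICB and 2.84% with 5-FU. Without 5-FU+ICB replicate 5 the lineage count was 11, and without cisplatin+ICB replicate 1 it was 7, each in a fit that called 13.6% of all genes higher. Among them Mpeg1, which encodes the pore-forming protein perforin-2, averaged 1728 CPM in the ICB tumors against 211 CPM in PBS (log2 3.03, adjusted p = 0.00210 by edgeR), and its log2 fold change with 5-FU+ICB was 2.34. C1qc, a subunit of C1q, rose by 2.29 with ICB and 2.05 with 5-FU+ICB on the log2 scale. The 2 lineage genes that rose with cisplatin+ICB were Mertk, an engulfment receptor (log2 1.59), and Itgam, which encodes CD11b (1.39). Of 16 genes of resident and scavenger macrophages, 11 rose and 1 fell with ICB, 3 rose with 5-FU, 11 rose with 5-FU+ICB, and 3 rose and 1 fell with cisplatin+ICB, with medians of 2.05, 1.59, 2.05 and 1.21. Those that rose with 5-FU were Lyve1, a hyaluronan receptor (15.7 against 2.30 CPM, log2 2.77, adjusted p = 0.0380), the chemokine Pf4 (log2 2.57) and the lectin Clec10a (log2 2.45). The Lyve1 mean was carried by 5-FU replicate 5, at 45 CPM against 6.82 to 9.65 CPM in the other 4 tumors, and without it the mean was 8.41 CPM and the call was lost (log2 1.87, adjusted p = 0.144 by edgeR). The Pf4 and Clec10a calls were lost without that tumor as well (log2 2.52 and 2.03). With 5-FU+ICB, Lyve1 (log2 3.69) and Pf4 (3.67) were among the largest rises, with ICB Timd4, a receptor of resident macrophages that binds dying cells (3.26), and the chemokine Ccl8 (2.74), and with cisplatin+ICB Pf4 rose (2.21) and Fcrls fell by 2.32. The scavenger receptor Marco was listed at 0 in all PBS tumors. Its means were 0.869 CPM with ICB, 2.98 CPM with 5-FU+ICB and 0.543 CPM with cisplatin+ICB. These were 8.05-fold, 27.6-fold and 5.03-fold the level of 3 counts averaged over the PBS tumors, 0.108 CPM. With Marco set against that level the median after 5-FU was 1.42, and the other medians were as given. Lyve1 is also a marker of lymphatic endothelium. Without the tumors that stood apart, 10 rose with 5-FU+ICB, and 6 rose and 1 fell with cisplatin+ICB. The latter fit called 18.5% of all genes lower. The members themselves are not counted in these lists.

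Of 16 genes of lipid-handling and lysosome-rich macrophages, 11 rose with ICB, 2 with 5-FU, 9 with 5-FU+ICB (1 fell) and 4 with cisplatin+ICB. Without the tumors that stood apart these last counts were 6 (none fell) and 5 (2 fell). Those fits called 6.70% and 18.5% of all genes lower. The cholesterol transporters Abca1 and Abcg1 were called higher with ICB, 5-FU, 5-FU+ICB and cisplatin+ICB. Abca1 averaged 34.5 CPM in the PBS tumors, 312 CPM with ICB, 222 CPM with 5-FU (log2 2.69, adjusted p = 0.0130 by edgeR), 330 CPM with 5-FU+ICB and 167 CPM with cisplatin+ICB. On the log2 scale the rises of Abcg1 in the same order were 3.60, 2.69, 3.52 and 2.51. With cisplatin+ICB both calls were kept in only 2 of the 9 fits that left out a tumor. With 5-FU the Abca1 call was kept in 8 and the Abcg1 call in 3. Itgax, which encodes CD11c and is also made by dendritic cells, had the largest rises of the list with ICB (4.19), 5-FU+ICB (4.60) and cisplatin+ICB (3.03). Trem2 and Spp1 were not called higher in any of these comparisons. Of 14 genes of alternative activation, 11, 4, 11 and 3 rose in the same order of treatments, Retnla reaching 92.3 CPM with ICB and 111 CPM with 5-FU+ICB against 1.34 CPM with PBS (log2 6.09 and 6.36, and 4.3 with 5-FU). The chemokine Ccl24 rose by 3.26, 2.79 and 3.64 with ICB, 5-FU and 5-FU+ICB on the log2 scale. The chitinase-like gene Chil3 rose with ICB (4.97) and cisplatin+ICB (6.34), the transcription factors Klf4 with 5-FU (2.61) and Irf4 with 5-FU+ICB (3.73), and the heme oxygenase Hmox1 (1.71) and the inhibitory receptor Cd200r1 (1.69) with cisplatin+ICB. Of 16 genes of inflammatory activation, 13, 4, 13 and 11 rose. Nos2, the inducible nitric oxide synthase, averaged 1.51 CPM with PBS, 320 CPM with ICB (log2 7.73), 94.2 CPM with 5-FU+ICB (5.96) and 152 CPM with cisplatin+ICB (6.65). Cxcl9, a chemokine that draws T cells, rose by 4.16 with ICB, 3.23 with 5-FU, 4.47 with 5-FU+ICB and 3.27 with cisplatin+ICB on the log2 scale. Slamf7 rose with ICB (4.06) and 5-FU (2.66), Tnf with 5-FU (2.43), and Cd38 with 5-FU+ICB (3.93) and cisplatin+ICB (3.06). Without the tumors that stood apart, 9 and 10 genes of alternative activation and 11 and 11 of inflammatory activation rose with 5-FU+ICB and cisplatin+ICB. With cisplatin alone no gene of these lists was called.

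Among 16 ligands and partners of the members, 6 rose with ICB, none with 5-FU, 6 rose and 1 fell with 5-FU+ICB, and 1 rose with cisplatin+ICB, with medians of 0.81, 0.33, 0.66 and 0.43, and 4 rose with each combination without the tumors that stood apart. The ligands of the Csf1r receptor, Csf1 and Il34, were not called in any comparison with PBS, and their group means ran from 246 to 359 CPM and from 25.1 to 43.2 CPM. Csf2, the growth factor GM-CSF, rose with ICB from 0.344 to 2.00 CPM (log2 2.52, adjusted p = 0.00683 by edgeR), and its log2 fold change was 2.46 with 5-FU+ICB and 2.14 with cisplatin+ICB. Apoc1, an apolipoprotein encoded beside Apoe, rose with 5-FU+ICB (2.55, adjusted p = 0.0460), a call kept in 2 of the 9 fits that left out a tumor and lost without replicate 5. Itgb3, the β3 integrin chain that binds osteopontin, averaged 12 CPM in PBS and 41.3 CPM in ICB (log2 1.78, adjusted p = 0.00759), where its ligand Spp1 lay below PBS. Nr1h3, the sterol sensor LXRα that drives Apoe and the cholesterol transporters, averaged 8.47 CPM in PBS, 28.7 CPM in ICB (log2 1.76, adjusted p = 0.0170) and 38.9 CPM in 5-FU+ICB (log2 2.2, adjusted p = 0.00473). Apart from Apoc1, the calls of these named genes in 5-FU+ICB were kept in all 9 fits that left out a tumor, and so were those in ICB, apart from Nr1h3 without PBS replicate 1 (adjusted p = 0.0512). With 5-FU each of the 11 was lost in at least 1 of the 9 fits, and Lyve1, Pf4, Clec10a, Abcg1 and Slamf7 were kept in only 3. With cisplatin+ICB 13 of the 15 were lost in at least 1 fit, each of them without PBS replicate 1 among others. Mertk, Itgam, Marco, Pf4, Itgax, Abcg1, Abca1 and Csf2 were kept in only 2 of the 9 fits, and Hmox1 and Cd200r1 in 3. Chil3 and Nos2 were kept in all 9.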

How the data were processed

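RNA from 28 whole tumors was sequenced by the study on an Illumina HiSeq (single-end reads). The authors deposited estimated counts per gene, not normalized, in 2 matrices of 55341 gene rows. Per the study's methods and the submitters' processing notes, reads were mapped to mouse transcripts (GRCm38/mm10) with kallisto 0.46.0 after bcl2fastq 2.20.0.422, and summarised to genes with tximport. Whether the library was stranded was not given in the sources used here. The 9 PBS and ICB tumors are in both matrices with 0 differing values, so the matrices were joined and each tumor counted once. Of the values 23.7% were not whole and were rounded; 18393 rows were at 0 in every tumor and 26 names had been turned into dates.

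Genes were filtered with filterByExpr (18521 kept), scaled by TMM (factors 0.685 to 1.15) and tested with edgeR 4.0.16 (quasi-likelihood, 1 fit over all 6 groups, Benjamini-Hochberg adjustment over all genes) in R 4.3.3. Values relative to Ptprc were log2 CPM (prior count 2) minus that of Ptprc, tested with limma 3.58.1 (trend) over 18520 genes. DESeq2 1.42.0 was an alternative. Totals of 23541733 to 33950805 counts per tumor make 3 counts worth at most 0.159 CPM; this covers counting error only. By the study's methods each mouse carried a tumor in 1 flank and the tumor was taken whole, so each tumor was treated as 1 mouse. Both scripts for tests across genes were first tested on simulated data.

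The members and gene lists were chosen with earlier results of these data known. All members are named in every comparison on the CPM scale and against PBS relative to Ptprc; between treated groups relative to Ptprc, those with an unadjusted p under 0.05 and the ends of the range of the others; of each list, up to 3 called genes with the largest absolute change in each comparison with PBS, and per member the most alike genes. A result that this rule would name is not reported here. Gene lengths came from GENCODE M21 and start regions from RefSeq. No proteins were printed. Alternatives were other scaling, filters, tests, references for Ptprc, single matrices, the replicate number as a block, and each tumor left out in turn. The fits of the gene lists and named list genes without single tumors, the levels and orders without the tumors that stood apart, and the fits of the Adgre1 and Csf1r reference without the tumors that stood apart were chosen after seeing the data.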

Additional observations from a re-analysis of the deposited data

Results flagged for a closer look

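In the 10 members and 6 groups, 60 sets of tumors were searched for a tumor far from the rest of its own group, and 5 had one. Chance alone marks about 1 in 20 such sets. Csf1r in cisplatin+ICB replicate 1 was at 5.76 log2 CPM (54.3 CPM) with the next tumor of the group at 8.25. Mrc1 in PBS replicate 2 was at 7.05 log2 CPM (132 CPM), above the next at 6.65. Trem2 in 5-FU replicate 3 was at 6.31 log2 CPM (79.5 CPM), above the next at 5.24. Gpnmb in ICB replicate 1 was at 3.36 log2 CPM (10.2 CPM), under the next at 4.37. Apoe in ICB replicate 4 was at 9.60 log2 CPM (778 CPM), under the next at 11.38.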

How the results depend on the processing

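Of 17 called member values, 119 of 127 alternative fits kept the call and 8 lost it, with no change of direction. Of the other 113 values, 746 of 773 fits kept their side, 13 passed and 14 changed sign. With a tumor left out, 125 of 153 fits of called values kept the call and 28 lost it, and 35 of 1237 fits of the others changed sign.

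The share of all genes called under a setting is given in parentheses. The number of members called in 5-FU against PBS was 3 (4.45%), and 1 with no filter on low counts (0.984%, 36683 genes tested in place of 18521), 0 with the replicate block (0.875%), 4 with DESeq2 (9.58%) or the 5-FU matrix alone (23.0%) and 5 with only the groups compared (23.4%). In ICB against PBS it was 8 (28.0%), 7 with no filter (10.4%), the block (19.5%) or the 5-FU matrix alone (37.8%), 9 with the cisplatin matrix alone (26.2%) and 10 with only the groups compared (40.4%). In 5-FU+ICB against PBS it was 6 in each of these (13.2% to 40.7%). In cisplatin+ICB against PBS it was 0, and 1 with DESeq2 (7.74%) or the cisplatin matrix alone (6.10%). In 5-FU against cisplatin it was 0, and 2 with DESeq2 (3.85%) and 1 with only the groups compared (5.62%), and in 5-FU+ICB against cisplatin+ICB 0, and 1 with DESeq2 (7.51%). Relative to Ptprc it was 2 in ICB against PBS, and 1 with the 4 leukocyte genes (73.4%) or Adgre1 and Csf1r (77.6%) as reference or the block (75.0%). In cisplatin+ICB against PBS it was 3, and 0 with Adgre1 and Csf1r as reference (0.189%) or with the block (0.0972%). On the Adgre1 and Csf1r reference without cisplatin+ICB replicate 1 (36.1%), Spp1 was called lower (log2 -2.33, adjusted p = 0.0219 by limma).

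Leaving out each tumor, the counts ran from 6 to 8 in ICB against PBS (16.2% to 30.0% of all genes), 0 to 3 in 5-FU (0.237% to 5.25%), 5 to 7 in 5-FU+ICB (20.3% to 41.1%) and 0 to 3 in cisplatin+ICB against PBS (0.327% to 32.1%), 0 to 1 in cisplatin+ICB against cisplatin (0% to 12.4%) and 0 to 2 in 5-FU+ICB against cisplatin+ICB (0.00541% to 11.6%). Relative to Ptprc they ran from 1 to 2 in ICB (69.8% to 78.9%), 0 to 3 in 5-FU (0.0105% to 24.7%), 4 to 6 in 5-FU+ICB (67.9% to 82.9%) and 0 to 4 in cisplatin+ICB against PBS (0.00527% to 61.2%), 0 to 4 in 5-FU+ICB against 5-FU (0.00541% to 68.5%), 0 to 2 in cisplatin+ICB against cisplatin (0% to 46.0%) and 0 to 2 in 5-FU+ICB against cisplatin+ICB (0.0162% to 35.4%).

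Apoe in cisplatin against PBS (-0.0072) changed sign to 0.021 with DESeq2 size factors, 0.025 with no filter, 0.044 with at least 10 counts in every tumor, 0.020 with DESeq2 and 0.033 with only the groups compared. Trem2 in 5-FU+ICB against PBS (-0.044) changed to 0.035, 0.077, 0.075, 0.034 and 0.029 under the same settings. The cause was not tested. With a tumor left out, the values that changed sign covered the following ranges. In cisplatin against PBS, Trem2 ran from -0.45 to 0.20 and Apoe from -0.31 to 0.27. In 5-FU+ICB against PBS, Trem2 ran from -0.23 to 0.27. In 5-FU+ICB against ICB, Mrc1 ran from -0.22 to 0.24, Folr2 from -0.42 to 0.23 and Apoe from -0.38 to 0.31. In 5-FU against cisplatin, Cd68 ran from -0.19 to 0.14 and Gpnmb from -0.36 to 0.38. In 5-FU+ICB against 5-FU, Apoe ran from -0.32 to 0.65, Adgre1 from -0.095 to 0.71 and Gpnmb from -0.0066 to 0.79. In the interaction of cisplatin with ICB, Trem2 ran from -0.69 to 0.14. In 5-FU+ICB against cisplatin+ICB, Cd68 ran from -0.076 to 0.26 and Gpnmb from -0.28 to 0.24. In cisplatin+ICB against ICB, Spp1 ran from -0.10 to 0.60.

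Replicate numbers did not pair the tumors: 21 of 66 same-number pairs had r over 0.1 (median -0.0186) and 6 of 28 tumors were most like their own number. With the replicate block Mrc1 (0.0081) and Apoe (-0.025) in 5-FU+ICB against ICB, and Cd68 (-0.037) and Gpnmb (-0.050) in 5-FU against cisplatin, changed sign.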
